A study of Mus musculus with 8 samples.

Results

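Gene expression in CD8+ T cells after 7 h of interferon beta (IFNb) was compared with that after 2 h of IFNb. The comparison holds 1 array of each duration, and it was made for every gene whose brightest probe was well above background on 1 or both of these arrays, which was 19113 of 28482 gene names on the array. Of these genes 17436 were well above background on both arrays and 1677 on only 1 of them.

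The cells were splenic CD8+ T cells from OT-I mice on a C57BL6 background, whose T cells bear 1 transgenic T cell receptor (TCR), specific for an ovalbumin peptide held by H-2Kb. They were enriched by magnetic depletion of other cells, checked by flow cytometry for CD8, B220 and CD11c, and cultured in RPMI with serum. The groups used here were untreated cells (2 arrays), IFNb for 2 h (1 array) and IFNb for 7 h (1 array), with no TCR stimulus in any of them. All of them carry the OT-I transgene. The IFNb dose and the time that untreated cells spent in culture are not given in the labels. The other 4 arrays of the series held TCR-stimulated cells, with or without IFNb, and are not used here.

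The 2 h array and untreated array 1 lay on 1 slide, and the 7 h array and untreated array 2 on the other. Each array carried 43379 spots other than controls, of which 26065 to 29533 were well above background. No spot was saturated. Values are given as scaled signal, the deposited linear intensity with the 75th percentile of each array at about 1500 and a floor of 15. Differences are log2 of the 7 h signal minus log2 of the 2 h signal. With 1 array per duration there is no replicate error, so no test was made and a gene was counted as different when the arrays lay 2-fold or more apart. An untreated array at 7 h is not named in the labels, so the duration of IFNb and the time in culture cannot be told apart. The untreated arrays give a measure of the spread between slides, and each IFNb array is also set against the untreated array of its own slide (the slide correction). In bulk RNA a change in the share of cells that express a gene and a change in RNA per cell cannot be told apart.

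Type I interferons bind the receptor IFNAR1/IFNAR2, whose kinases JAK1 and TYK2 phosphorylate STAT proteins. With IRF9 these form the complex ISGF3, which binds the interferon-stimulated response element (ISRE) in the promoters of antiviral genes. Among the induced genes are amplifiers such as IRF7 and brakes such as SOCS1 and USP18, and in CD8+ T cells IFNb also acts on cytotoxic genes, homing receptors and survival.

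To show the element through which these genes are known to be read, the ISRE was searched as GAAA, any 2 bases and GAAA again, on both strands (TTTC, any 2 bases and TTTC on the reverse), from 250 bases before to 50 bases after the start of each gene in the RefSeq promoter table of GRCm38.p6. It was held by 1131 of the 32851 promoters (3.44%). Below are 5 promoter stretches of genes with different time courses, written 5′ to 3′ on the strand of the gene, with the match in capitals and up to 20 bases on each side. Ddx60 (chr8:61928014-61928086, plus strand) and Oas1a (chr5:120907526-120907565, minus strand) were among the genes with the largest gain between 2 h and 7 h. Isg15 (chr4:156200855-156200916, minus strand) and Ifit1 (chr19:34640765-34640833, plus strand) were within 2-fold of their 7 h level at 2 h. Socs1 (chr16:10785584-10785639, minus strand) was also within 2-fold. It was lower at 7 h than at 2 h (-0.51), as was Ifit1 (-0.30).
Ddx60: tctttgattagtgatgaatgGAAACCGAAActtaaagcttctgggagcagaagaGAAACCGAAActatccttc
Oas1a: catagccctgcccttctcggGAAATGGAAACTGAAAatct
Isg15: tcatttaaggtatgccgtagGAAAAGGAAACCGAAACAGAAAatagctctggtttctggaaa
Ifit1: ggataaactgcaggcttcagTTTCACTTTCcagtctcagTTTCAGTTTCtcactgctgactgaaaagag
Socs1: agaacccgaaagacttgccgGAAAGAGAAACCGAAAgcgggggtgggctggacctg
The stretches of Ddx60, Ifit1, Oas1a and Socs1 held 2 matches each and that of Isg15 held 3, of which those of Oas1a, Isg15 and Socs1 overlapped. The motif was held by 22 of 40 antiviral genes with a listed promoter (55%) and by 5 of 20 class I presentation genes (25%). Among the antiviral genes 2-fold or more higher at 7 h, 10 of the 19 with a promoter held it (52.6%). Among those that were not 2-fold higher, 12 of the 21 with a promoter did (57.1%), so the 2 shares were close. Of the 15 genes with the largest gain from 2 h to 7 h, 12 had a listed promoter and 2 of these held the motif (16.7%), which are Ddx60 and Oas1a. Oasl2, Ube2l6 and Ifi44 were among those with no match in the window. A match is a description of the letters and shows no binding. The share by time course over all genes is void, because under 80% of the genes in each class had a promoter in the table.

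At 7 h 913 genes were 2-fold or more higher than at 2 h (4.78% of the 19113) and 898 were 2-fold or more lower (4.7%). Of these genes 19037 had values on both untreated arrays, and 230 of them (1.21%) lay 2-fold or more apart there, in either direction. The genes were chosen by their signal on the IFNb arrays, and none was required on the untreated arrays. A gene at the floor on both untreated arrays counts as alike, so the shares and SD of the untreated pair may be too low for a like comparison. Among genes well above background on both IFNb arrays, 467 were higher (2.68%) and 532 lower (3.05%), against 121 in either direction (0.696%) between the untreated arrays. After the slide correction 3.87% of genes were higher and 5.26% lower, and 353 of the 467 and 464 of the 532 stayed 2-fold or more apart in the same direction. The SD of the differences over all genes was 0.63 for 7 h minus 2 h and 0.26 for the untreated pair. Above a signal of 1000 the untreated arrays differed with an SD of 0.0708 to 0.0772, which is about the median SD of 0.0599 to 0.0813 among repeated spots of a probe within 1 array. The labels do not say whether they came from separate cultures, so this pair may measure hybridisation only. Below a signal of 100 the untreated arrays were 2-fold apart for 4.26% of genes and the IFNb arrays for 23.1%, so dim genes carry the largest error. From 1000 to 10000 none of 6284 genes were 2-fold apart between the untreated arrays, whereas 220 were between 7 h and 2 h.

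**Figure D1:**
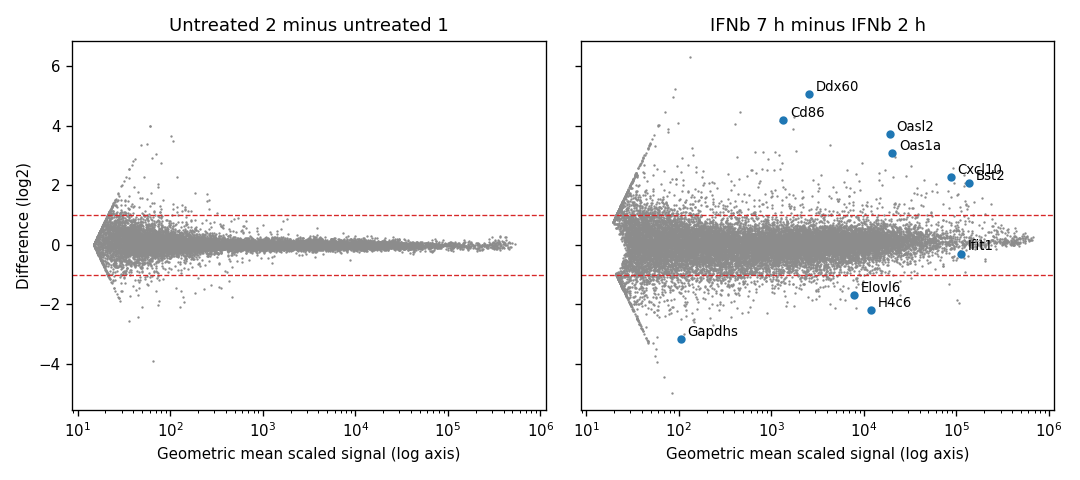
The log2 difference of each gene is plotted against its geometric mean scaled signal (log axis), on the left for untreated array 2 minus 1 and on the right for IFNb 7 h minus 2 h, with dashed lines at 2-fold and 10 genes named. The untreated pair is narrow above a signal of 1000, where the IFNb pair holds genes such as Ddx60 (5.08) and H4c6 (-2.20), and the slanted edges at the left are probes at the floor of 15.

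Set against the untreated array of its own slide, 1049 genes were 2-fold or more higher at both durations (5.51%). Of these 146 were a further 2-fold or more higher at 7 h after the slide correction, 868 were within 2-fold and 35 were 2-fold or more lower again. Another 1004 genes passed 2-fold at 2 h only (5.27%) and 928 at 7 h only (4.87%). Of these, 556 of the 1004 and 536 of the 928 were within 2-fold between the durations after the slide correction. For them the class tells only which array passed the 2-fold line. In the downward direction 446 genes were lower at both (2.34%), 250 at 2 h only (1.31%) and 646 at 7 h only (3.39%). Within 2-fold between the durations were 178 of the 250 and 393 of the 646. Opposite changes of 2-fold or more were found for 16 genes that were higher at 2 h and lower at 7 h (0.084%) and for 7 with the reverse order (0.0368%). Most of these rest on probes at background: 6 of the 16 and 1 of the 7 were well above background on both IFNb arrays. Of the genes higher at 2 h only 716 were, and of those higher at 7 h only 612. Over all genes the median difference from untreated was 0.10 for the early array and 0.12 for the late array, so counts of higher genes include a small shift of all genes. The medians of the arrays' probes differed in the same way, at 89.6 and 92.2 for the untreated arrays, 102 at 2 h and 101 at 7 h.

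**Figure D2:**
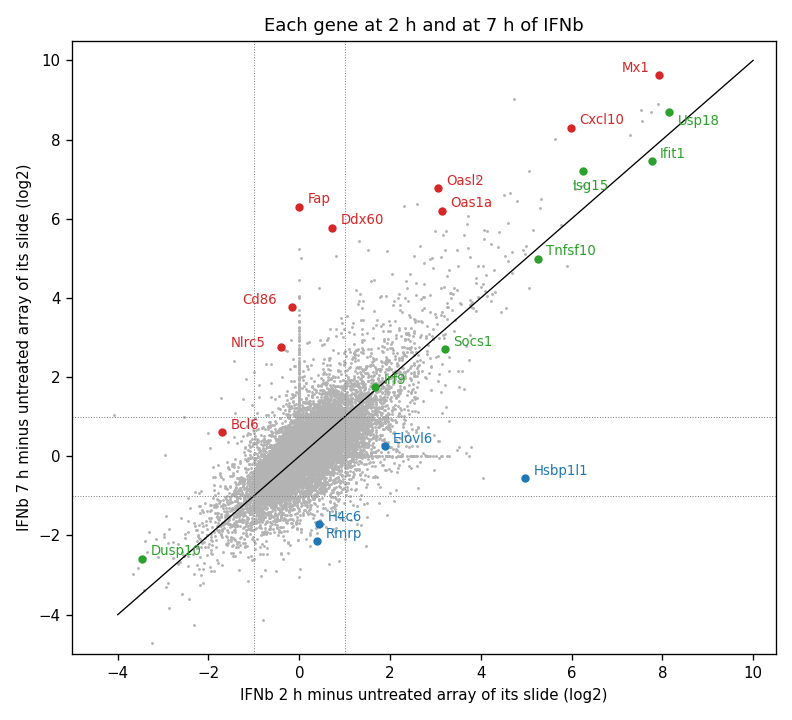
Each point is a gene, with its log2 difference from the untreated array of the same slide at 2 h of IFNb (horizontal) and at 7 h (vertical); the solid line marks equal values and dotted lines mark 2-fold. Named genes are red where 7 h was 2-fold or more above 2 h, green where the arrays were within 2-fold and blue where 7 h was 2-fold or more below; Mx1 lies at 7.92 and 9.62, Ifit1 at 7.76 and 7.46.

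Among the antiviral effectors the 7 h array stood above the 2 h array for most members. Of 53 genes listed, 49 were measured, 24 of them 2-fold or more higher at 7 h (4.78% of all genes) and 1 lower (4.7%). The median difference was 0.85, against 0.05 over all genes, and it was 0.69 after quantile normalization and 0.66 after normexp. Against untreated, 41 of the 49 were 2-fold or more higher at 2 h and 42 at 7 h, against 10.9% and 10.4% of all genes, so most members were already up at 2 h. Ddx60, a helicase-like antiviral factor, had a scaled signal of 266 and 270 in untreated cells, 439 at 2 h and 14802 at 7 h. It was 33.7-fold higher at 7 h, the largest fold among genes well above background on both arrays, and its 2 probes gave log2 differences of 2.57 and 5.08. The 2 h value was 1.65-fold above untreated, and only the 7 h array was high.

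The oligoadenylate synthetases, which make the 2-5A that activates RNase L, gained strongly. Oas1a stood at 780 and 800 in untreated cells, 6943 at 2 h and 59026 at 7 h, an 8.5-fold gain. Oasl2, an OAS-like protein, went from 634 and 631 to 5246 and then 69154, a 13.2-fold gain. Both genes stood higher on each later array, with the untreated pair together at the bottom. Oas2 was 4.56-fold and Oas3 3.9-fold higher at 7 h than at 2 h. The Oas1 genes are near-identical copies, and probes of this family may share signal.

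Other antiviral genes that were 2-fold or more higher at 7 h had different levels at 2 h. Bst2 (tetherin), which holds budding virions at the cell surface, had a signal of 13233 and 13137 untreated, 67597 at 2 h and 283590 at 7 h. Ifitm3, which blocks viral entry from endosomes, was 6.73-fold higher at 7 h, and Isg20, an exonuclease, 4.27-fold. Mx1, a dynamin-like GTPase that traps viral ribonucleoproteins, had 96 and 93.3 untreated, 23211 at 2 h and 73415 at 7 h, a 3.16-fold gain on a gene already far above untreated. Samhd1, which depletes nucleotides, was 3.17-fold higher, and Ifi44 stood at the floor on both untreated arrays, at 226 at 2 h and at 1945 at 7 h.

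Other antiviral genes differed less between 2 h and 7 h. Ifit1, which binds viral RNA lacking the host cap methylation, had a signal of 568 and 570 untreated, 123370 at 2 h and 100420 at 7 h. Both IFNb arrays were far above untreated, and they differed by -0.30. Isg15, a ubiquitin-like modifier, went from 1983 and 1750 to 150750 and 257090, a difference of 0.77. Rsad2 (viperin) was 184-fold above untreated at 2 h and 432-fold at 7 h, 2.19-fold apart. Ifi27 was the member 2-fold or more lower, with 46306 and 42940 untreated, 44305 at 2 h and 13707 at 7 h.

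**Figure D3:**
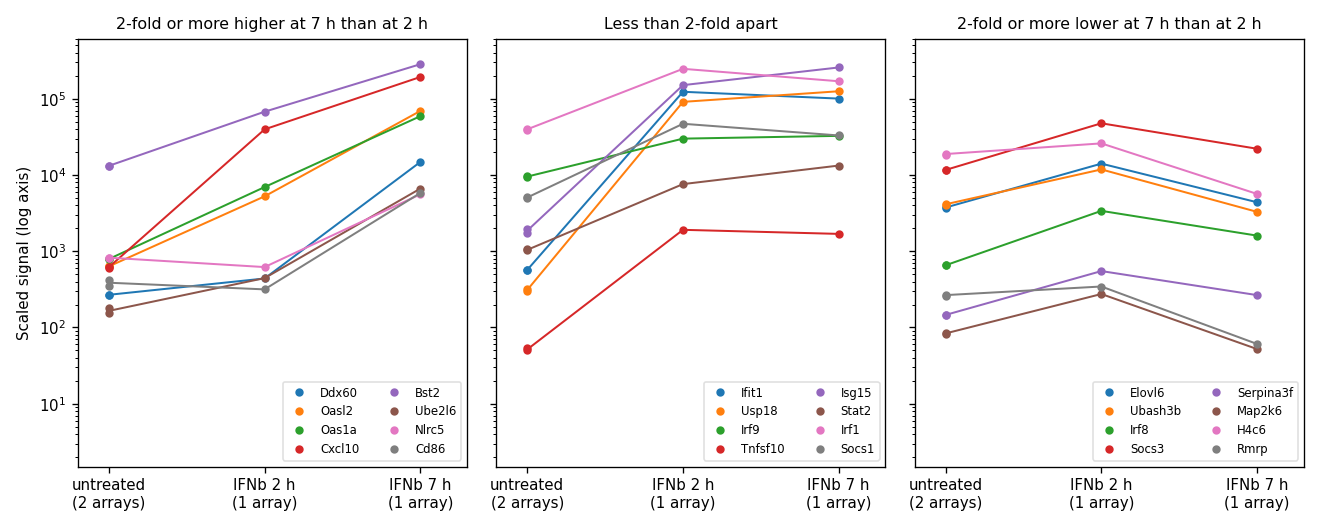
Scaled signal (log axis) of 24 genes on the untreated, IFNb 2 h and IFNb 7 h arrays; dots are arrays, and the lines join the geometric mean of the untreated arrays to the 2 h and 7 h arrays. The left panel holds genes 2-fold or more higher at 7 h than at 2 h (Ddx60 439 to 14802), the middle panel genes within 2-fold (Ifit1 123370 to 100420) and the right panel genes 2-fold or more lower (Elovl6 14086 to 4386).

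The machinery that attaches ISG15 to proteins was uneven in time. Ube2l6, the E2 enzyme of this pathway, had a signal of 178 and 153 untreated, 444 at 2 h and 6623 at 7 h. That is a 14.9-fold gain after 2 h, when Isg15 itself stood within 2-fold of its 7 h level. Herc6, the E3 ligase used in mice, was 5.17-fold and Uba7, the E1 enzyme, 2.52-fold higher at 7 h. Usp18, which removes ISG15 and also blocks the receptor, had 319 and 303 untreated, 90976 at 2 h and 125300 at 7 h. Of the 8 genes measured 3 were 2-fold or more higher at 7 h (4.78% of all genes), none was lower, and the median difference was 0.62. It was 0.37 after quantile normalization and 0.35 after normexp.

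Of 25 nucleic acid sensors and adaptors measured, 20 lay above 0 (54.3% of all genes). At 7 h 10 were 2-fold or more higher (4.78% of all genes), with none 2-fold lower and a median of 0.69. Ifih1 (MDA5), a sensor of long double-stranded RNA, had 785 and 834 untreated, 7045 at 2 h and 40052 at 7 h. Its signal was 5.69-fold higher at 7 h, against 2.21-fold for Ddx58 (RIG-I) and 2.59-fold for Dhx58 (LGP2). Tlr7 was 3.55-fold and Tlr3 3.53-fold higher. Mlkl, the executioner of necroptosis, was 5.86-fold higher. Nlrc5, the transactivator of class I genes, had 821 and 825 untreated, 619 at 2 h and 5577 at 7 h, so it stood below untreated at 2 h and was 9-fold higher at 7 h than at 2 h.

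The interferon-inducible GTPases attack vacuoles of intracellular pathogens. On each IFNb array 15 of 15 measured genes passed 2-fold over untreated, against 10.9% of all genes at 2 h and 10.4% at 7 h. Of these 3 were a further 2-fold higher at 7 h (4.78% of all genes): Iigp1 (5.01-fold), Gbp2 (2.57-fold) and Gbp6 (2.56-fold). The list had a median difference of 0.45, which was 0.23 after quantile normalization and 0.29 after normexp. Among 7 schlafen genes measured, 7 lay above 0 (54.3% of all genes), with a median of 0.47 (0.27 after quantile normalization, 0.31 after normexp). Slfn3 (3.51-fold) and Slfn4 passed 2-fold (4.78% of all genes). Of 11 PARP family genes Parp12 (4.44-fold) and Parp11 (2.9-fold) passed (4.78% of all genes), with a list median of 0.45 (0.26 after normexp).

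Genes of class I antigen presentation differed little individually but in 1 direction. Of 24 measured genes 22 were above 0 (91.7%, against 54.3% of all genes), 3 were 2-fold or more higher (4.78% of all genes) and none was lower, with a median of 0.55. The median was 0.36 after quantile normalization and 0.33 after normexp. B2m, the invariant light chain of class I, had 323940 and 301440 untreated, 348040 at 2 h and 521240 at 7 h, and its 3 probes ranged from -0.02 to 0.58. H2-K1 went from 229450 and 223090 to 293620 and 416550, and H2-D1 from 213640 and 212440 to 302000 and 441740. For these heavy chains the 2 h array was closer to untreated than to 7 h. H2-T24 (4.58-fold), the proteasome activator Psme1 (2.29-fold) and the trimming peptidase Erap1 (2.21-fold) passed 2-fold, though Psme1 was at 0.94 after quantile normalization and Erap1 at 0.98 by the mean of its probes. Probes of class I heavy chains may share signal, since these genes are closely alike.

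**Figure D4:**
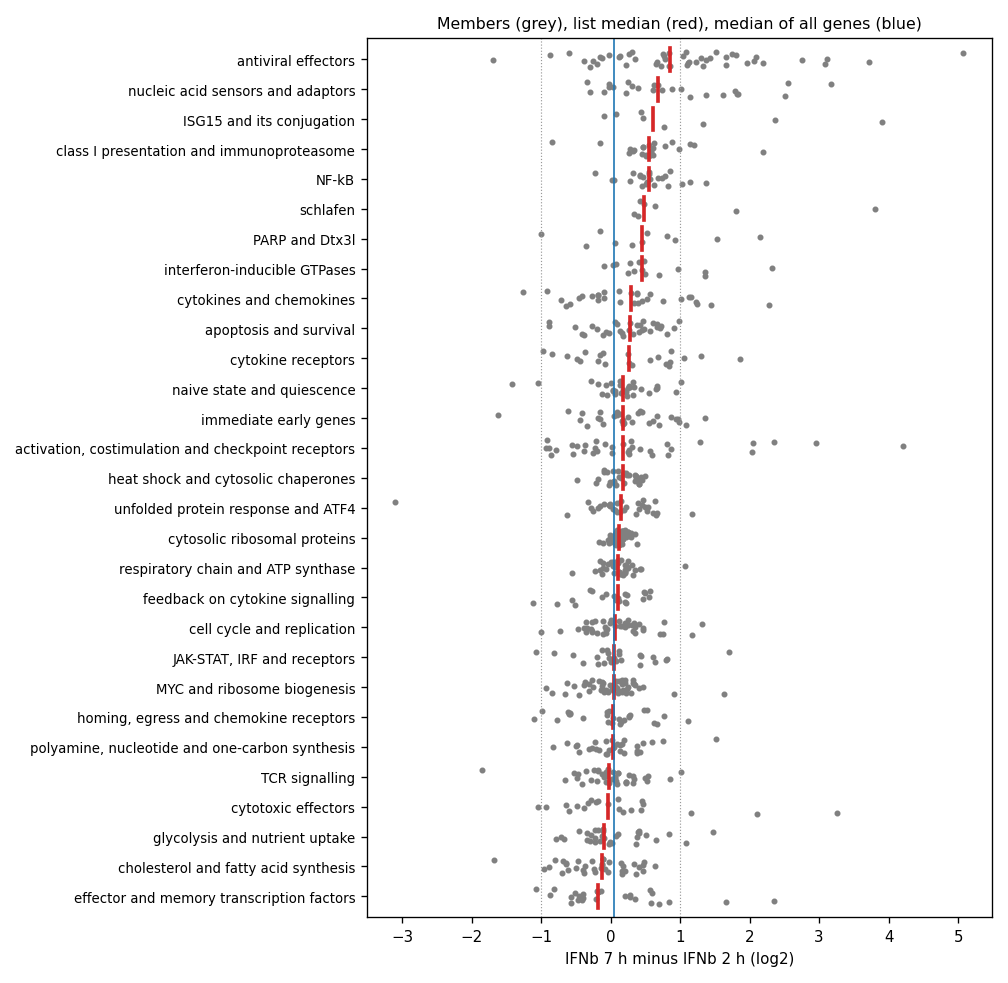
Log2 difference of IFNb 7 h minus IFNb 2 h for the measured members (grey dots) of 29 gene lists, with the list median in red, the median of all genes measured (0.05) in blue and dotted lines at 2-fold. The antiviral effectors have the highest median (0.85) and the effector and memory transcription factors the lowest (-0.18).

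Of 25 JAK-STAT, IRF and receptor genes 1 was 2-fold or more higher and 1 lower, near the 4.78% and 4.7% of all genes, and the median was 0.05, as over all genes. Irf7, the factor that amplifies the interferon response, had 1889 and 1857 untreated, 20974 at 2 h and 68518 at 7 h, a 3.27-fold gain. Stat2 (0.81) was modestly higher at 7 h, and Irf9 (0.12) was level at 29970 and 32590. Irf1 had 40092 and 39376 untreated, 246770 at 2 h and 169540 at 7 h, and Irf8 650 and 659, then 3383 and 1602. Both were highest on the 2 h array. Ifnar1 differed by 0.42 and Ifnar2 by -0.18.

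Among 21 feedback genes 1 was 2-fold lower and none was 2-fold higher, near the 4.7% and 4.78% of all genes. The list median was 0.11, against 0.05 over all genes. Socs3, an inhibitor of JAK kinases, had 11727 and 11572 untreated, 47634 at 2 h and 22080 at 7 h, so that it was 2.16-fold lower at 7 h. Socs1 had 5078 and 5056 untreated, 46944 at 2 h and 32983 at 7 h, a difference of -0.51. Both remained above the untreated arrays.

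Chemokine and cytokine genes were 2-fold or more higher at 7 h for 7 of 31 measured genes (4.78% of all genes) and lower for 1 (4.7%), with a median of 0.30. Cxcl10, which attracts CXCR3-bearing lymphocytes, had 625 and 612 untreated, 39662 at 2 h and 192800 at 7 h. It was 4.86-fold higher at 7 h, and Cxcl11, which shares its receptor, was 2.72-fold higher but low in signal, and only 0.46 higher after normexp background correction. Cxcl9, the third CXCR3 ligand, was 747 at 2 h and 481 at 7 h. Ccl3 was 2.37-fold and Tnf 2.33-fold higher at 7 h. The 7 genes also held the low signals of Il2 and Il3, which were not well above background on the 2 h array. Tnfsf10 (TRAIL), a death ligand, had 50.1 and 53 untreated, 1908 at 2 h and 1688 at 7 h.

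Surface receptors of activation and costimulation held large gains in a few genes. Of 35 measured genes 6 were 2-fold or more higher (4.78% of all genes), none was lower (4.7%), and the median was 0.18. Cd86, a ligand of CD28 and CTLA-4, had 351 and 425 untreated, 316 at 2 h and 5806 at 7 h, an 18.4-fold gain, and its other probe was higher at 7 h too. Ly6c1 had 9463 and 9545 untreated, 7829 at 2 h and 60530 at 7 h. For both genes the 2 h array lay just below the untreated arrays and only the 7 h array was high. Ly6c2 (5.11-fold), Ly6a (Sca-1, 4.12-fold) and Ly6e (2.44-fold) were also higher at 7 h, and probes of Ly6 genes may share signal. Lag3, an inhibitory receptor, had 21.4 and 29.6 untreated, 55.8 at 2 h and 228 at 7 h. Cd69, which retains cells in lymphoid tissue, differed by 0.83.

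Of 21 cytotoxic effector genes 3 were 2-fold or more higher, all granzymes (4.78% of all genes), 1 was lower (4.7%), and the median was -0.03. Gzma had 537 and 518 untreated, 2929 at 2 h and 12582 at 7 h. Gzmb had 1811 and 1783 untreated, 1690 at 2 h and 3780 at 7 h. Gzmc was 45.3 at 2 h and 435 at 7 h, and its difference of 3.26 was 1.98 after normexp. Gzma was raised on both IFNb arrays, whereas Gzmb and Gzmc were above untreated only at 7 h. Serpina3f, a serine protease inhibitor, was 2.07-fold lower at 7 h, and at -0.88 after normexp. Among cytokine receptors 3 of 22 were 2-fold or more higher (4.78% of all genes): Il12rb1 (3.62-fold), Il18rap (2.47-fold) and Il12rb2 (2.07-fold, and 0.64 after normexp). Il12rb1 had 220 and 223 untreated, 573 at 2 h and 2077 at 7 h. Il18rap had 308 and 318 untreated, 199 at 2 h and 493.5 at 7 h. Il12rb2 had 254 and 246 untreated, 99.3 at 2 h and 206 at 7 h, so it was below untreated on both IFNb arrays.

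Some genes that were low at 2 h stood near or above untreated at 7 h. Bcl6, a repressor linked to memory fate, had 4908 and 5083 untreated, 1517 at 2 h and 7752 at 7 h. Id3, an inhibitor of E proteins, had 14717 and 14753, then 3914 and 12323. Dusp2, a phosphatase of MAP kinases, had 50622 and 49632, then 13489 and 34723. In each of these genes the 2 h array was the lowest of the 4. Cxcr4, the receptor for CXCL12, was 2361 and 2362 untreated, 444 at 2 h and 960 at 7 h, still below untreated. Ccr7 and S1pr1, which guide naive T cells through lymph nodes, did not share this return: Ccr7 was 24054 and 26419 and S1pr1 27525 and 28007 on the IFNb arrays, against 48101 to 49800 and 51852 to 52876 in untreated cells.

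The NF-kB list had a median difference of 0.55, with 22 of 23 measured genes above 0 (54.3% of all genes). Of these 3 were 2-fold or more higher (4.78% of all genes). The median was 0.44 after quantile normalization and 0.39 after normexp. Nfkbia, the inhibitor that NF-kB itself induces, had 59668 and 59631 untreated, 44784 at 2 h and 116160 at 7 h. Nfkbie was 2.22-fold and Relb 2.04-fold higher at 7 h than at 2 h. Nfkbie had 3463.5 and 3741 untreated, 4105 at 2 h and 9098 at 7 h. Relb had 13238 and 13251 untreated, 7274 at 2 h and 14826 at 7 h, so it was below untreated at 2 h and near it at 7 h. After normexp Nfkbia was at 0.95 and Relb at 0.78. Against untreated the median of this list was -0.17 at 2 h and 0.25 at 7 h. Lists of ribosomal proteins (0.13), respiratory chain (0.11), MYC and ribosome biogenesis (0.05), cell cycle (0.06), glycolysis (-0.10), TCR signalling (-0.02) and cholesterol and fatty acid synthesis (-0.12) had medians near that of all genes. Myc differed by -0.45.

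Some of the genes lower at 7 h had their highest signal at 2 h. Elovl6, a fatty acid elongase, had 3823 and 3666 untreated, 14086 at 2 h and 4386 at 7 h. Ubash3b, a phosphatase that dampens TCR signalling, had 4182 and 4075, then 11826 and 3283. Map2k6, a kinase upstream of p38, had 82 and 85.3, then 275 and 52.1. For these genes the 7 h array was back near or below untreated. Map2k6 was at -1.28 after normexp. Among the 15 largest differences downward, Eya2, a transcriptional coactivator, had 617 and 553 untreated, 1067 at 2 h and 218 at 7 h, and Trnp1 655 and 608, then 863 and 160. Gapdhs, a sperm form of a glycolytic enzyme, was dim, at 316 and 35.2 on the IFNb arrays, and its other probe differed by 0.16. The olfactory receptors Olfr17 (253 and 44.8) and Olfr520 (141 and 26.3) were likewise dim. After normexp Gapdhs was at -1.68, Olfr17 at -1.29 and Olfr520 at -0.99.

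Many replication-dependent histone genes were lower at 7 h than at 2 h, though they are few among the 898 lower genes. Replication-dependent histone genes, whose mRNA ends in a stem-loop in place of a poly(A) tail, were grouped after their values had been seen, so their count is a description. Of 26 measured genes 14 were 2-fold or more lower (4.7% of all genes), none was higher, and the median was -1.06. Below 0 lay 24 of them, whereas 54.3% of all genes lay above 0. H4c6 had 19106 and 18542 untreated, 25965 at 2 h and 5640 at 7 h. H1f3 had 389 and 409, then 506 and 92.9. In these examples the 2 h value was a little above untreated and the 7 h value far below. Over the list the median difference from untreated was -0.12 at 2 h, with 2 genes 2-fold or more lower, and -1.65 at 7 h, with 19. Of all genes 1.31% were 2-fold or more lower at 2 h only, 3.39% at 7 h only and 2.34% at both. After normexp H1f3 differed by -1.65 between the IFNb arrays. In contrast 8 replication-independent histone genes, grouped in the same way, had a median of -0.04. None of them was 2-fold apart, against 4.78% of all genes higher and 4.7% lower. Histone genes of a class are close copies, so probes may share signal.

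RNAs that lack a poly(A) tail were also in part lower at 7 h. The 18S ribosomal RNA probe Rn18s had 29368 and 28433 untreated, 40950 at 2 h and 10305 at 7 h. Rmrp, the RNA of RNase MRP, had 262 and 270, then 345 and 60.8, and Rn28s1 was 2.16-fold lower. Rmrp differed by -2.50 between the IFNb arrays, or by -1.55 after normexp. The small nucleolar RNA probes Snora3 (0.02) and Snord33 (0.21) did not follow. Of 8 ribosomal, RNase and small RNAs measured, grouped after their values had been seen, 3 were 2-fold or more lower (4.7% of all genes). None was 2-fold higher, 3 lay above 0 (54.3% of all genes) and the median was -0.20. Against untreated the list median was -0.006 at 2 h and -0.88 at 7 h. Per the labels' protocols the RNA was amplified from total RNA with a MessageAmp kit, a method that primes on the poly(A) tail. A part of RNA quality or priming in the histone values was not tested.

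**Figure D5:**
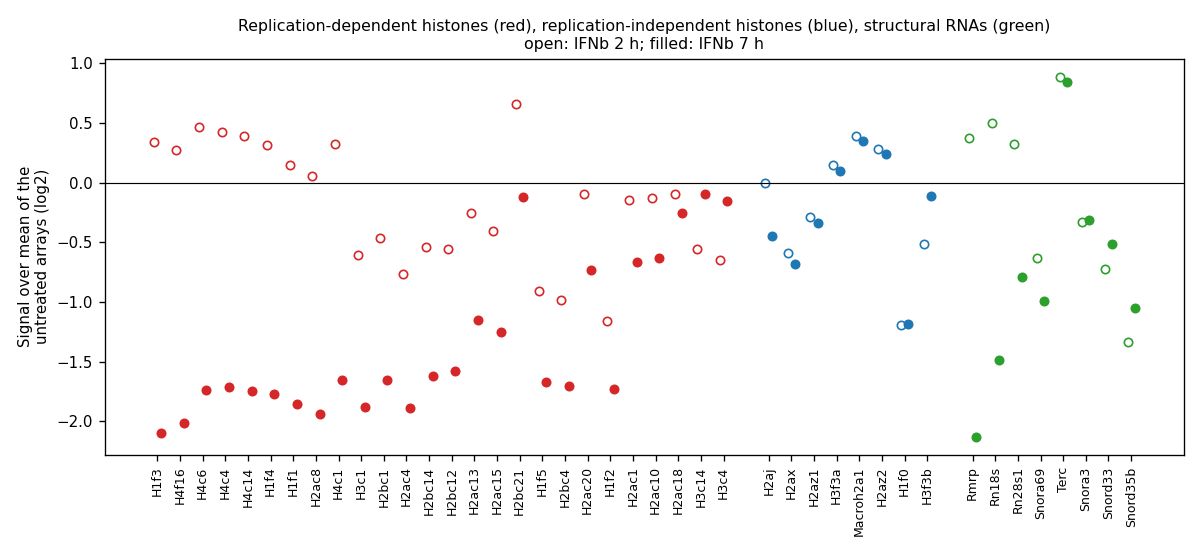
Log2 signal over the geometric mean of the untreated arrays for replication-dependent histones (red), replication-independent histones (blue) and structural RNAs (green), with open symbols for IFNb 2 h and filled symbols for IFNb 7 h. In most red pairs the filled symbol lies well below the open one (median difference -1.06), whereas the blue pairs lie close together (median -0.04).

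Some genes were well above background on only 1 of the IFNb arrays, and for them the ratio is a lower bound: the bright array over the higher of the dim probe's own signal and the lowest signal well above background on the dim array. Fap, a membrane serine protease, lay at the floor of 15 on the untreated and 2 h arrays and reached 1183 after 7 h, a gain of at least 41.4-fold. Cyp1b1, a cytochrome P450, was at least 19.7-fold higher, Snai1 at least 11.6-fold and Slfn4 at least 10-fold. In these genes the 7 h array alone was above the floor by a wide margin. Nkain3 was at least 16.9-fold higher by its brightest probe, whereas its other probe differed by -0.07. Ltf was at least 14.1-fold higher, but its untreated arrays stood at 23.1 and 177. In the other direction Hsbp1l1 was 474 at 2 h and at the floor at 7 h, at least 19-fold lower. Each of these rests on 1 bright array. The bounds are computed on the deposited background correction, and after normexp with an offset of 50, which raises dim signals, the log2 differences were 3.74 for Fap, 2.84 for Cyp1b1, 2.13 for Snai1, 1.70 for Slfn4, 2.44 for Nkain3, 2.11 for Ltf and -2.50 for Hsbp1l1.

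Further genes among the 15 largest gains were outside the lists. Sdc3, a syndecan, had 59 and 65.1 untreated, 294 at 2 h and 5210 at 7 h, with its 2 probes at 0.69 and 4.15. Sct, which encodes secretin, had 34.8 and 44.3, then 98.8 and 1651. Ccrl2, a decoy-like chemoattractant receptor, had 210 and 348, then 1340 and 13835. All were highest at 7 h. Tmem106a (8.67-fold), Atp10a (8.62-fold), Ttc39b (8.18-fold) and Etv4 (8.04-fold) completed this group, and the last 3 were below untreated at 2 h. After normexp Sct was at 3.32 and Etv4 at 1.72.

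The labelled cell type was checked by its markers. Cd8a had 30587 and 30815 untreated, 44198 at 2 h and 55482 at 7 h, and Cd8b1 215510 and 214880, then 312030 and 364280, while Cd4 stood at 110 to 135. Of 8 CD8 T cell markers measured 1 was 2-fold lower at 7 h (4.7% of all genes). This was Thy1, at 130500 and 52264, though its other probe differed by -0.23. Markers of other cells were counted as measured when well above background on 1 or both IFNb arrays, with none required on the untreated arrays. Among them Alas2 was not well above background at 2 h. Fcer2a and Adgre1 were so on only 1 of the untreated arrays. B cell markers (8 of 9 measured) summed to 13492 and 13120 untreated, 41550 at 2 h and 35492 at 7 h, with a median difference of -0.49. Markers of class II presenting cells (7 of 7) summed to 23733 and 23277, then 52626 and 31460. All 7 of 7 were lower at 7 h than at 2 h, whereas 54.3% of all genes were higher. Myeloid markers (8 of 9) summed to 4244 and 4307, then 9597 and 10451, and NK markers (6 of 6) to 2160 and 2075, then 5203 and 5910. Erythroid markers (5 of 6) summed to 3959 and 3920, then 12808 and 11620. Pax5, Itgam and Siglech were the only members of the B cell, myeloid and plasmacytoid dendritic cell lists not well above background on either IFNb array. Of the 8 B cell markers measured, 5 were 2-fold or more above untreated at each duration, against 10.9% of all genes at 2 h and 10.4% at 7 h. All these sums were higher on both IFNb arrays than on the untreated arrays. Several of these genes respond to interferon in other cells, and the part of other cells in the results above, such as Cd86 or Cxcl10, was not tested.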

How the data were processed

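RNA of 4 of the 8 arrays of the series was compared. The authors' deposited values are linear intensity. Per the file headers the scanner files were made with Agilent Feature Extraction 10.7.3.1 and carry build mm9, whereas the submitters' processing notes name 9.5.3.1. Each column of the deposited table was found to equal that array's processed signal times 1 factor (1.21 to 1.75 for the arrays used), with the 75th percentile at about 1500 and a floor of 15, which settles its scale, centring and direction. Column medians were 89.6, 102, 92.2 and 100.6 for untreated 1, IFNb 2 h, untreated 2 and IFNb 7 h.

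Of each array 177 to 246 spots marked as outliers were left out. Repeated spots were averaged as log2 and the brightest probe stood for its gene. Of 41174 probes 26690 were matched by accession, which renamed 3169, and 14484 kept the file's name. Promoters were matched by symbol in the RefSeq table of GRCm38.p6. Fold counts, lists and promoters were computed in Python 3.11.15 with pandas 2.3.3 and numpy 2.4.6, normexp and quantile alternatives with limma 3.58.1 in R 4.3.3, and figures with matplotlib 3.10.9. The counting was tested on simulated data, with noise sized by the untreated pair, every probe set well above background and no slide effect. That setting cannot test the background filter, the bounds for dim probes or the slide. The number of arrays limits the precision.

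Genes named were the 15 with the largest difference each way that were well above background on both arrays and also 2-fold apart the same way after the slide correction, the 8 largest bounds each way, up to 3 of each list each way if 2-fold, 8 genes each of those higher at 2 h only and at 7 h only, and a fixed set; not all are described. Clone names were passed over (71 of the higher and 142 of the lower genes kept after the slide correction). Some further genes and the histone and RNA lists were chosen after their values were seen. The genes and lists were chosen with earlier results of these data known. Of the fixed set Ch25h was not well above background on either IFNb array. A model pooling the TCR arrays was not run.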

Additional observations from a re-analysis of the deposited data

Results flagged for a closer look

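For 1 named gene well above background on both IFNb arrays, these arrays moved in opposite directions, each by 2-fold or more from the untreated array of its own slide; the difference was not tested. Tedc1, a tubulin-associated protein, had 143 and 126 untreated, 361 at 2 h and 59.7 at 7 h, a difference of -2.40 after the slide correction (-2.59 before it, and -1.66 after normexp without the slide correction). It rests on 1 probe of low signal.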

How the results depend on the processing

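The 913 higher and 898 lower genes became 289 and 253 after normexp background correction and quantile normalization, 467 and 532 with both arrays well above background, 449 and 501 with a floor of 50, 2285 and 2326 at 1.5-fold, and 162 and 105 at 4-fold. They stayed within 1.5 times under array median scaling, quantile normalization, the scanner's processed signal, no filter on dim probes, the mean of all probes and the slide correction, and without histones and structural RNAs, an alternative chosen after seeing the data (913 and 881). After normexp and quantile normalization 540 genes were higher at both durations, 314 at 2 h only and 392 at 7 h only, and 384 were lower at 7 h only. With all 4 arrays well above background 530 were higher at 2 h only and 531 at 7 h only. At 4-fold the counts were 286, 195 and 282 for higher at both, at 2 h only and at 7 h only, and 54, 38 and 99 for lower. Array median scaling moved lower at 2 h only from 250 to 519. Without untreated replicate 1 or 2, higher at 2 h only ranged from 918 to 984 and higher at 7 h only from 885 to 1294. No direction was reversed among the named genes 2-fold or more apart (112) or the list medians of 0.5 or more; of 112 such genes 22 came under 2-fold after normexp. Of 222 list values over 37 lists 42 moved by more than the spread of the untreated pair. No paired analysis was possible because each IFNb duration has 1 array. Dim genes, with 23.1% of them 2-fold apart below a signal of 100, limit the counts.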

Other observations

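A few genes of metabolism were 2-fold or more higher at 7 h in lists whose medians lay near that of all genes. Hk1, which starts glycolysis, was 7784 and 8151 in untreated cells, 15902 at 2 h and 33757 at 7 h, whereas the median of 32 glycolysis and nutrient genes was -0.10. Cycs, the cytochrome c of the respiratory chain, was 18851 at 2 h and 39628 at 7 h, where the median of 44 respiratory genes was 0.11. After normexp background correction Hk1 was at 0.91 and Cycs at 0.89. Mxd1, an antagonist of MYC, was 3942 and 12257 on the IFNb arrays against 3994 and 4048 in untreated cells. Of 33 apoptosis and survival genes none was 2-fold apart, against 4.78% of all genes higher and 4.7% lower. Gsdmd, the pore-forming gasdermin, was the highest at 0.98.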
